A study of Mus musculus with 12 samples.

Results

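The 26S proteasome is the protease that breaks down proteins tagged with ubiquitin. Its core particle, the 20S barrel, is built from alpha rings, which gate the entry, around beta rings, which hold the active sites. The 19S regulatory particle caps the barrel, and its ATPase ring and non-ATPase subunits bind, unfold and feed in the substrate. The genes for these subunits are known to be switched on together when the proteasome is inhibited, through the transcription factor NFE2L1, and interferon is known to swap the catalytic beta subunits for the immunoproteasome subunits Psmb8, Psmb9 and Psmb10. In liver the proteasome serves a tissue with heavy protein synthesis and secretion.

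The constitutive subunit genes were taken as every gene symbol that begins with Psma, Psmb, Psmc or Psmd and a digit, leaving out the immunoproteasome subunits Psmb8, Psmb9 and Psmb10 and symbols that mark an interacting protein or a pseudogene. The rule used names only and no measured value. It gave 35 of the 16970 genes in the deposited table: 8 Psma genes, 7 Psmb genes, 6 Psmc genes and 14 Psmd genes. FPKM scales the fragments of a gene by the length of its model and by the reads of the library, so levels can be compared between genes per length. Of the 35, 34 passed the filter for testing, which asked that 3 or more of the 12 libraries reach an FPKM of 1. The gene that did not pass was Psma8, an alpha subunit known from the testis, at 0.0286 to 0.782 FPKM, which is 2 to 53 recovered reads a library. Psmb11, the beta subunit of the thymus, was not analysed here.

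The data are polyA RNA sequencing of whole liver from mice with cholestasis, in 4 groups of 3 libraries. BDL mice had the common bile duct tied for 7 days; BDL_HDCA mice were also given 100 mg/kg of the bile acid hyodeoxycholic acid (HDCA) for 4 days, beginning 3 days after the operation. Abcb4KO mice lack the canalicular phospholipid transporter Abcb4 per the series description and were 60 days old at the start; Abcb4KO_HDCA mice were given the same dose of HDCA for 21 days. All 4 groups are thus cholestatic, no healthy liver was analysed here, and dosing time differed between the models, as did the number of days of disease. The sources used here give no sex, no strain and no vehicle for the untreated groups.

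The libraries labelled MDR in the titles were taken as Abcb4KO. Abcb4 itself (chr5:8893717-8959231, GRCm38) was at 181, 150.1 and 162 FPKM in the libraries labelled Abcb4KO and at 165, 155 and 129 FPKM in those labelled Abcb4KO_HDCA. The BDL libraries had 52.8, 152 and 168 FPKM and the BDL_HDCA libraries 160.5, 72.1 and 178 FPKM. Abcb4 reads were therefore not fewer in the libraries labelled as knockout, the table does not show which exons the reads came from, and every direction between the models below rests on the labels. The recovered reads numbered 34260782 to 40427855 per library. BDL replicate 1 and BDL_HDCA replicate 2 stood apart: their median log2(FPKM + 1) over the genes tested was 2.48 and 2.56, against 2.81 to 3.06 in the other 10 libraries. In the library labelled Abcb4KO replicate 1, Y-linked genes summed to 20.1 FPKM, as in the BDL libraries at 16.1 to 19.6, whereas the other 5 libraries of that model were at 0.0 to 0.016 FPKM. All 6 hepatocyte markers were above 0 in every group, and they summed to 49139 to 59757 FPKM in the ligated groups and to 33749 to 48736 FPKM in the Abcb4KO groups, without overlap. No label says that the libraries of a group come from separate animals, so the spread that the p-values rest on, that between libraries, may be technical.

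The subunit genes were abundant in every group. Their mean FPKM over the 12 libraries ran from 8.55 to 148 with a median of 59.0, whereas the median over the 10805 genes tested was 6.36 FPKM, and 90.7% of the genes tested lay below the median subunit gene. A mean of at least 30 FPKM was reached by 31 of the 35 genes. The exceptions were Psma8 and the 19S assembly chaperones Psmd5, Psmd9 and Psmd10, which help to build the particle and are not part of the finished one.

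Within the alpha ring, Psma4 (chr9:54950790-54958030) had the highest mean, 107 FPKM with a coefficient of variation (CV) of 13.9%, and Psma5 (chr3:108256926-108279974) the lowest of the 7 tested, 32.9 FPKM with a CV of 14.98%. The 3 catalytic beta subunits lay close together. Psmb5 (chr14:54614119-54618022), which carries the chymotrypsin-like activity, was at 97.4, 109 and 101 FPKM in BDL, 106, 99.8 and 109 in BDL_HDCA, 107, 108 and 112 in Abcb4KO and 125, 93.0 and 96.9 in Abcb4KO_HDCA. Psmb6 (chr11:70525367-70527858), the caspase-like subunit, was at 106, 121 and 116 FPKM in BDL, 122, 110.2 and 129 in BDL_HDCA, 128, 131 and 128 in Abcb4KO and 155, 121 and 113 in Abcb4KO_HDCA. Psmb7 (chr2:38588036-38644087), the trypsin-like subunit, was at 111, 118 and 117 FPKM in BDL, 133, 107 and 131 in BDL_HDCA, 149, 138 and 126 in Abcb4KO and 165, 125 and 124 in Abcb4KO_HDCA. For all 3 the highest library was Abcb4KO_HDCA replicate 1, and the other 11 libraries differed by less than 1.5-fold. Among the beta subunits without an active site, Psmb4 (chr3:94884093-94886961) was the highest of all members at a mean of 148 FPKM and Psmb2 (chr4:126677630-126709714) the lowest of that class at 90.8 FPKM.

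The 19S genes were lower per length than those of the 20S, with class medians of 57.5 FPKM for the 6 ATPases and 41.6 FPKM for the 11 non-ATPase subunits, against 79.3 FPKM for the alpha ring, 123 FPKM for the catalytic beta subunits and 110.0 FPKM for the other beta subunits. The ATPases ran from Psmc6 (chr14:45329788-45349705) at 43.4 FPKM to Psmc1 (chr12:100110154-100123405) at 78.7 FPKM. Psmd14 (chr2:61711694-61800376), the deubiquitinase that removes the ubiquitin chain from the substrate, was the lowest non-ATPase subunit at 32.0 FPKM. Psmd8 (chr7:29174188-29180701), a subunit of the lid, was the exception among them at 139.9 FPKM, next in rank to Psmb4. Among the chaperones Psmd5 was the highest at 19.8 FPKM and Psmd10 (chrX:140948429-140956728), also known as the oncoprotein gankyrin, the lowest at 8.55 FPKM. A subunit gene's level per length depends on the gene model: 11 of the 35 genes have another annotated gene of at least 95% identity over at least 200 bases, mostly processed pseudogenes, such as Gm13835 for Psma3, and exons of 2 overlap a gene on the same strand and those of 8 a gene on the other. Counting that ignores strand cannot separate the latter, among them Psmb7 with Nek6 and Psmd13 with Sirt3.

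**Figure D1:**
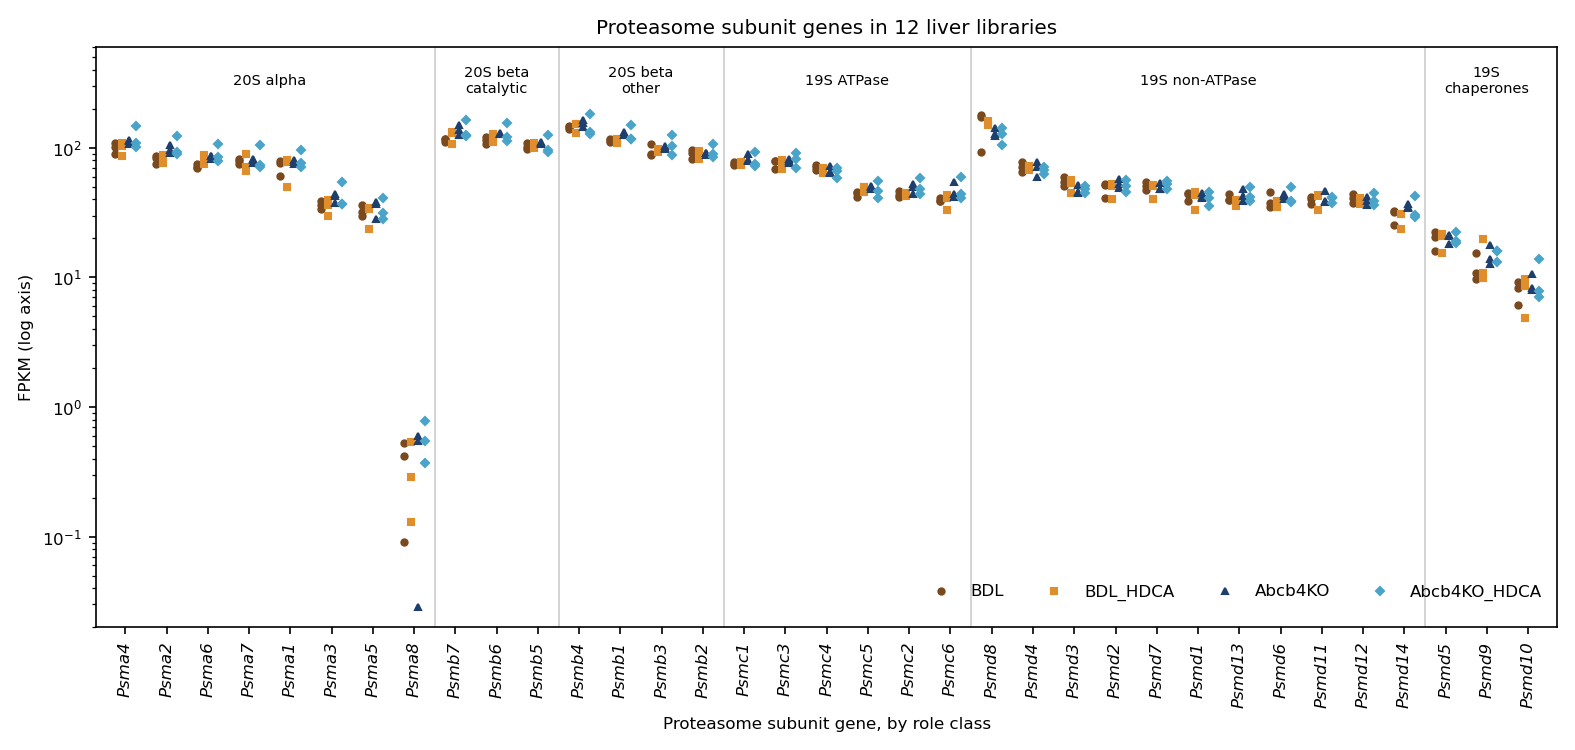
FPKM of each of the 35 subunit genes (log axis) in each of the 12 libraries, ordered by role class and by mean level within the class; each point is 1 library and the colour and shape give the group. Most 20S genes lie above most 19S genes, with Psma3 and Psma5 (means of 38.9 and 32.9 FPKM) low among the 20S and Psmd8 high among the 19S. The 19S chaperones lie between 4.89 and 22.6 FPKM, and Psma8 below 1 FPKM.

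NFE2L1 and its relative NFE2L2 are known to bind an antioxidant response element, whose core is TGACNNNGC, and CCAAT boxes are a general promoter element that NF-Y binds. RefSeq promoters (250 bases before to 50 after the start site, GRCm38.p6) were at hand for 28 of the 35 genes and were searched for both on both strands. TGACNNNGC was found in 5 of the 28 (17.86%) and in 13.99% of the 27025 genes with a promoter in that table. CCAAT was found in 11 of the 28 (39.29%) and in 41.06% of all genes. No subunit promoter held both and 12 held neither, and a match is a description of the letters only. The stretches with TGACNNNGC are shown, with the element or its reverse complement in capitals and up to 15 bases on either side on the gene's strand, followed by CCAAT stretches that lie within 60 bases before the start site, shown for 4 genes as examples.
Psmb5 (chr14:54618019-54618057, minus strand): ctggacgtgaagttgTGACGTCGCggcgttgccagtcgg
Psmb6 (chr11:70525333-70525356, plus strand): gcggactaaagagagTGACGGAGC
Psmd9 (chr5:123228144-123228182, plus strand): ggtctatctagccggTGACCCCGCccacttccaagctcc
Psmc6 (chr14:45329582-45329620, plus strand): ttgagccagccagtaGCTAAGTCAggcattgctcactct
Psmd12 (chr11:107479278-107479304, plus strand): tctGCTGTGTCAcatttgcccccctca
Psma6 (chr12:55384178-55384212, plus strand): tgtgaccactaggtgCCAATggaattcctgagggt
Psma2 (chr13:14613173-14613207, plus strand): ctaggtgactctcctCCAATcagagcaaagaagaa
Psmc2 (chr5:21785232-21785266, plus strand): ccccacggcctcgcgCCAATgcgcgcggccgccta
Psmb3 (chr11:97703376-97703410, plus strand): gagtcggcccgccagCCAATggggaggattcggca

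In Psmb6 the element ends 1 base before the start site, in Psmd9 23 bases and in Psmb5 39 bases before it, whereas in Psmc6 and Psmd12 it lies on the other strand and begins 227 and 247 bases upstream. The factor genes themselves were expressed in all groups. Nfe2l1 was at 19.8, 26.0 and 23.01 FPKM in BDL, 24.8, 18.2 and 27.7 in BDL_HDCA, 26.8, 28.6 and 32.0 in Abcb4KO and 22.2, 28.5 and 29.4 in Abcb4KO_HDCA. Its 3 Abcb4KO libraries lay above the 3 BDL libraries, which held for 39.2% of all genes tested. The fitted difference, 0.34 ± 0.17 (log2, SE), did not pass limma with Benjamini-Hochberg adjustment (adjusted p = 0.183). Nfe2l2 was lowest in BDL replicate 1 (23.5 FPKM) and BDL_HDCA replicate 2 (22.0 FPKM), and between 36.9 and 57.1 FPKM in the other 10 libraries.

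The subunit genes varied little. Over all 12 libraries the median CV of the 34 genes tested was 10.4%, against 20.7% over all genes tested and 16.97% over the 4062 genes whose mean FPKM falls in the range of the subunit genes. Those 4062 genes share the range but lie mostly below the median subunit gene, as 90.7% of all genes tested do. The part of level in the gap was not tested. The highest library exceeded the lowest by 1.23-fold for Psmd12, a lid subunit, to 2.82-fold for Psmd10, with a median of 1.42-fold, against 2.05-fold over all genes tested. That ratio was below the median of all genes for 33 of the 34 genes, and the CV was below it for 32. The genes with the widest spread were Psmd10 with a CV of 26.4%, Psmd9 with 23.55% and Psmd8 with 18.6%. Summed over the 35 genes, the subunit FPKM was 2245 ± 124 in BDL, 2252 ± 165 in BDL_HDCA, 2389 ± 76.0 in Abcb4KO and 2399 ± 363 in Abcb4KO_HDCA (SD, n = 3 each). This sum was 0.421 to 0.572% of all FPKM in a library, and the groups overlapped: the lowest of the 3 Abcb4KO libraries (2310) lay below the highest BDL library (2344).

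Much of the remaining variation was shared by library. Abcb4KO_HDCA replicate 1 had the highest value of the 12 libraries for 24 of the 34 genes and the highest of its group for 33. Its subunit genes lay at a median of 0.35 (log2) above the other 2 libraries of the group, whereas all genes tested lay at 0.04. The shift was 0.40 for the 14 genes of the 20S and 0.26 for the 17 of the 19S without the chaperones. Gene model length moved with it: genes under 1500 bases lay at 0.28 (1532 genes) and genes of 3000 bases or more at -0.02 (5931 genes), and 17 of the 34 subunit genes fall in the first class and 2 in the second. The part of length in the shift was not tested.

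BDL_HDCA replicate 2 had the lowest value of the 12 libraries for 18 of the 34 genes and the lowest of its group for 30. Its subunit genes lay at -0.21 and all genes tested at -0.27 from the other 2 libraries of the group. In BDL replicate 1 the subunit genes lay at -0.12 and all genes at -0.27. The shift was not shared by all: BDL replicate 1 was the highest of its group for 6 genes and BDL_HDCA replicate 2 for 3, and the ATPase Psmc4 and the chaperone Psmd9 were the highest in both. Psmd9 was at 15.5, 10.9 and 9.79 FPKM in BDL, and 10.8, 19.95 and 9.97 FPKM in BDL_HDCA. Psmd9 and Psmc4 were singled out after their values were seen.

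**Figure D2:**
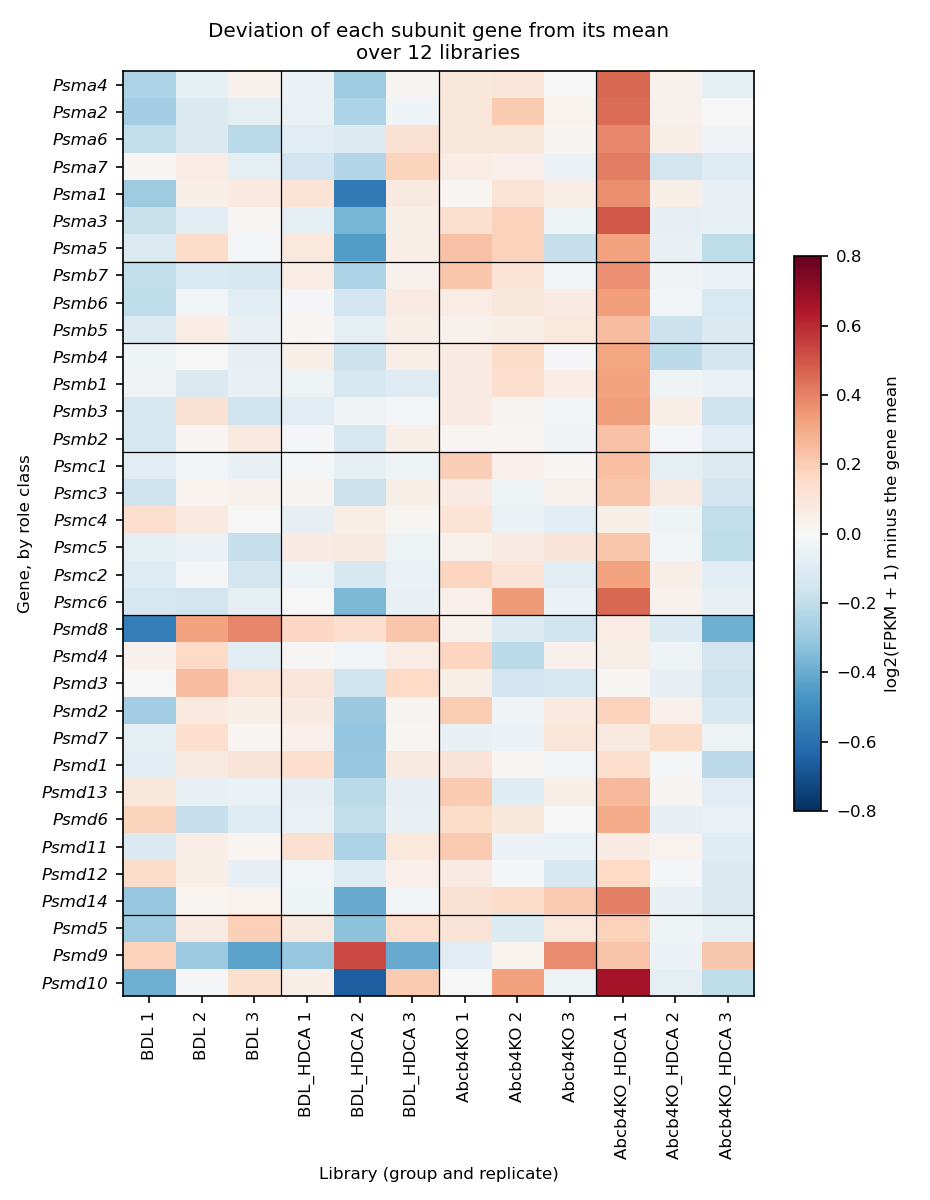
Heat map of log2(FPKM + 1) minus the gene's mean over the 12 libraries, for the 34 subunit genes tested (rows, by role class) and the 12 libraries (columns, by group and replicate); red is above and blue below the gene's mean. Abcb4KO_HDCA replicate 1 is the reddest column (highest for 24 genes) and BDL_HDCA replicate 2 the bluest (lowest for 18 genes), with Psmd9 and Psmc4 among the genes against the trend in the latter.

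**Figure D3:**
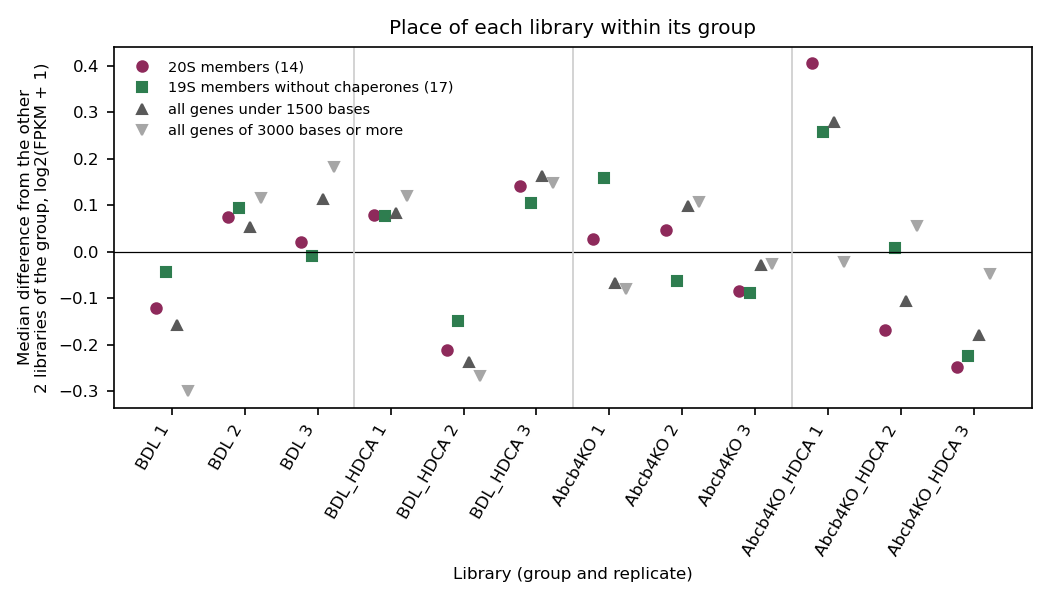
Median difference of each library from the other 2 of its group on the log2(FPKM + 1) scale, for the 14 subunit genes of the 20S, the 17 of the 19S without chaperones, all tested genes under 1500 bases and all tested genes of 3000 bases or more. In Abcb4KO_HDCA replicate 1 the 20S genes are at 0.40 and the long genes at -0.02.

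The first comparison asked whether HDCA changed the subunit genes in ligated mice. No subunit gene passed the test. On the log2(FPKM + 1) scale the 34 changes ran from -0.11 to 0.15 with a median of -0.02, and the median over all genes tested was 0.03. In limma with Benjamini-Hochberg adjustment, 0 of 34 subunit genes and 0 of 10805 genes (0.0%) had an adjusted p under 0.05. Without adjustment it was 0 of 34 and 243 genes (2.25%). With limma array weights, which give noisier libraries less weight, it was 0 of 34 and 1 gene (0.00925%, higher).

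The 3 subunit genes with the smallest p, none of them called, were Psma6, Psmc5 and Psmd13. Psma6 (chr12:55384222-55418454), an alpha ring subunit, was at 70.5, 74.8 and 69.8 FPKM in BDL and at 76.1, 75.1 and 88.5 FPKM in BDL_HDCA, a change of 0.15 ± 0.12 (log2, SE; limma adjusted p = 1.0). Psmc5 (chr11:106256154-106263120), an ATPase, was at 44.97, 45.8 and 41.5 FPKM and at 49.4, 49.7 and 45.9 FPKM, a change of 0.13 ± 0.12. Psmd13 (chr7:140881968-140898643), a lid subunit, was at 44.1, 39.7 and 39.8 FPKM and at 39.4, 35.5 and 39.4 FPKM, a change of -0.11 ± 0.12, which was -0.01 without the pair of libraries that stood apart. The treated libraries were above the untreated ones without overlap for 2 subunit genes, Psma6 and Psmc5, and below for 1, Psmd13, and over all genes tested this held for 3.43% and 1.59%.

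The precision bounds what was missed. All 34 of the 95% intervals of the change lay within 1 of 0 on the log2 scale and 31 of 34 within 0.58, which is 1.5-fold. The widest reached from -0.63 for Psmd10 to 0.65 for Psmd9. With BDL replicate 1 and BDL_HDCA replicate 2 left out, the median was 0.02 and the count of called subunit genes stayed at 0.

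The same question in Abcb4KO mice had the same count. The 34 changes ran from -0.09 to 0.08 with a median of 0.00, beside -0.04 over all genes tested, and limma called 0 of 34 subunit genes and 0 of 10805 genes (0.0%) at an adjusted p under 0.05. Without adjustment it was 0 of 34 and 61 genes (0.565%). No subunit gene had groups without overlap, which over all genes held for 1.35% in the higher direction and 4.6% in the lower. The smallest p belonged to Psmc5, at 48.5, 49.6 and 50.7 FPKM without HDCA and 55.2, 46.5 and 41.0 FPKM with it, a change of -0.07 ± 0.12. The treated libraries lay on both sides of the untreated ones, and the same held for Psmb5 (-0.07 ± 0.12) and Psmb4 (-0.08 ± 0.14), neither of them called.

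Here too the intervals were narrow, 33 of 34 within 0.58 of 0. One library set the median: without Abcb4KO_HDCA replicate 1 it was -0.12, beside -0.06 over all genes tested, still with 0 subunit genes called. With the replicate number as a block, although no label gives pairs, the count of called subunit genes was also 0.

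The difference of the HDCA effect between the models was tested as an interaction term. It was called for 0 of 34 subunit genes and 0 of 10805 genes (0.0%; 200 genes, 1.85%, and 0 subunit genes without adjustment). The median difference, Abcb4KO minus BDL, was 0.02 for the subunit genes and -0.07 for all genes. The smallest p belonged to Psmc5 (-0.20 ± 0.16), then to the lid subunits Psmd7 (0.17 ± 0.17) and Psmd13 (0.12 ± 0.17). The 95% interval was within 1 of 0 for all 34 and within 0.58 for 27.

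The widest contrast in the table, untreated Abcb4KO against untreated BDL, left the subunit genes without a call while many other genes changed. limma called 1746 of 10805 genes (16.2%; 15.1% higher and 1.07% lower in Abcb4KO) and 0 of the 34 subunit genes. Without adjustment it was 34.3% of genes and 0 subunit genes. The subunit changes ran from -0.21 to 0.29 with a median of 0.11, 28 above 0 and 6 below, and the median over all genes was 0.25, so that relative to it the subunit median was -0.15. As these are whole livers, fewer cells of a type and less RNA per cell cannot be told apart. Marker sums moved with this comparison: the hepatocyte sum was lower in Abcb4KO, the 5 stellate cell and fibroblast markers summed to 54.4 to 108 FPKM in BDL and to 186 to 346 FPKM in Abcb4KO, and the 4 erythroid markers to 77.3 to 216 FPKM and 316 to 386 FPKM, all of them above 0 in both groups. Y-linked genes summed to 16.1 to 19.6 FPKM in BDL and to 20.1, 0.0 and 0.0 FPKM in Abcb4KO. They summed to 16.5 to 19.6 FPKM in BDL_HDCA and to at most 0.016 FPKM in Abcb4KO_HDCA. Sex, which the labels do not give, thus went largely with the model, and these cannot be told apart. The part of the cell types and of sex in the differences between the models was not tested.

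The direction of the median depends on how libraries are scaled. With median-of-ratios scaling of the FPKM the subunit median was -0.26 and that of all genes -0.05. Relative to all genes the subunit median was -0.21 there and -0.15 on the deposited scale, so it lay below the median gene under both scalings.

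The 3 subunit genes with the smallest p all had higher FPKM in the libraries labelled Abcb4KO, and none was called. Psma6 was at 70.5, 74.8 and 69.8 FPKM in BDL and at 86.4, 86.6 and 82.3 FPKM in Abcb4KO, a difference of 0.24 ± 0.12 (limma adjusted p = 0.186). Psma2 (chr13:14613240-14674236), also of the alpha ring, was at 74.4, 83.2 and 85.8 FPKM and at 96.5, 105 and 92.0 FPKM, a difference of 0.27 ± 0.14 (limma adjusted p = 0.19). Psmb7 was at 111, 118 and 117 FPKM and at 149, 138 and 126 FPKM, a difference of 0.25 ± 0.14 (limma adjusted p = 0.217). The groups did not overlap for any of the 3, but each difference turned negative with median-of-ratios scaling: -0.12 for Psma6, -0.10 for Psma2 and -0.12 for Psmb7.

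In all, 9 subunit genes had the 3 Abcb4KO libraries above the 3 BDL libraries and 0 had them below; over all genes this held for 39.2% and 3.12%. The 9 were Psma2, Psma6, Psmb1, Psmb6, Psmb7, Psmc1, Psmc5, Psmc6 and Psmd14, named after their values were seen. By class, the median difference was 0.16 for the alpha ring, 0.17 for the catalytic beta subunits, 0.09 for the other beta subunits, 0.14 for the ATPases and 0.00 for the non-ATPase subunits of the 19S. Of the last class 6 lay above 0 and 5 below.

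Under other limma settings a few subunit genes were called, Psmd3, Psmd7, Psmd8 and Psmd9, all named after their values were seen. Psmd3, a lid subunit, was at 50.3, 59.7 and 54.5 FPKM in BDL and at 51.9, 45.03 and 45.4 FPKM in Abcb4KO. Its groups overlapped, and its fitted difference of -0.21 ± 0.12 did not pass limma (adjusted p = 0.242). It was lower with median-of-ratios scaling (limma adjusted p = 0.0138) and with array weights (limma adjusted p = 0.00306). The array weights of the BDL libraries were 0.134, 4.88 and 1.11. The weighted BDL mean thus rested mostly on replicate 2, which had the highest Psmd3 value of BDL. Psmd7 was lower with median-of-ratios scaling (limma adjusted p = 0.0481). Over all genes 4.5% were called lower and 5.92% higher with median-of-ratios scaling, and 6.9% lower and 38.9% higher with array weights.

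Psmd8, in the lid, depended on the libraries that stood apart. It was at 93.5, 172 and 180.5 FPKM in BDL and at 141, 127 and 123 FPKM in Abcb4KO, and the low BDL value was that of replicate 1, which stood apart. With all libraries the difference was -0.13 ± 0.22 (limma adjusted p = 0.681). Leaving out BDL replicate 1 alone gave -0.43, which was not called (limma adjusted p = 0.0698). With BDL_HDCA replicate 2 left out as well the difference was again -0.43 and passed limma (adjusted p = 0.044). Psmd9 then passed in the other direction (0.47, limma adjusted p = 0.0464). BDL_HDCA replicate 2 is not in this comparison, and leaving it out moved neither difference. It enters only through the spread shared by all groups and the adjustment over all genes. With array weights Psmd8 was lower and Psmd9 higher (limma adjusted p = 0.00502 and 0.00498). The weights were lowest for the same pair of libraries, 0.134 and 0.171, so that fit was close to leaving them out and was not separate evidence. The BDL mean then rested mostly on replicate 2 (weight 4.88, against 1.11 for replicate 3). With the pair of libraries left out 3.34% of all genes were called lower and 17.3% higher.

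With HDCA in both models the picture was close to this. limma called 896 genes (8.29%; 7.36% higher and 0.935% lower in Abcb4KO_HDCA) and 0 of the 34 subunit genes, and without adjustment 28.3% of genes and 0 subunit genes. The subunit median was 0.12 and that of all genes 0.20, again with 28 above 0 and 6 below. With median-of-ratios scaling the subunit median was -0.15, beside -0.03 over all genes. Without Abcb4KO_HDCA replicate 1 it was -0.01, beside 0.17 over all genes.

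The smallest p belonged to Psma2, at 86.9, 76.0 and 88.4 FPKM in BDL_HDCA and 124, 92.8 and 90.03 FPKM in Abcb4KO_HDCA, a difference of 0.27 ± 0.14 that did not pass limma (adjusted p = 0.218) and was 0.13 without Abcb4KO_HDCA replicate 1. Psmc6 (0.28 ± 0.16) and Psma4 (0.25 ± 0.15) followed, neither of them called. Psma2 was the only subunit gene without overlap in the higher direction (32.4% of all genes) and Psmd8 the only one in the lower (4.55%). Psmd8 was at 155, 151 and 161 FPKM in BDL_HDCA and at 143, 127 and 105 FPKM in Abcb4KO_HDCA, a difference of -0.32 ± 0.22 (limma adjusted p = 0.354). It was called lower with limma array weights (adjusted p = 0.0347), under which 5.2% of all genes were lower and 20.2% higher. In that fit BDL_HDCA replicate 1 had a weight of 3.5, against 0.171 and 1.28 for replicates 2 and 3.

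**Figure D4:**
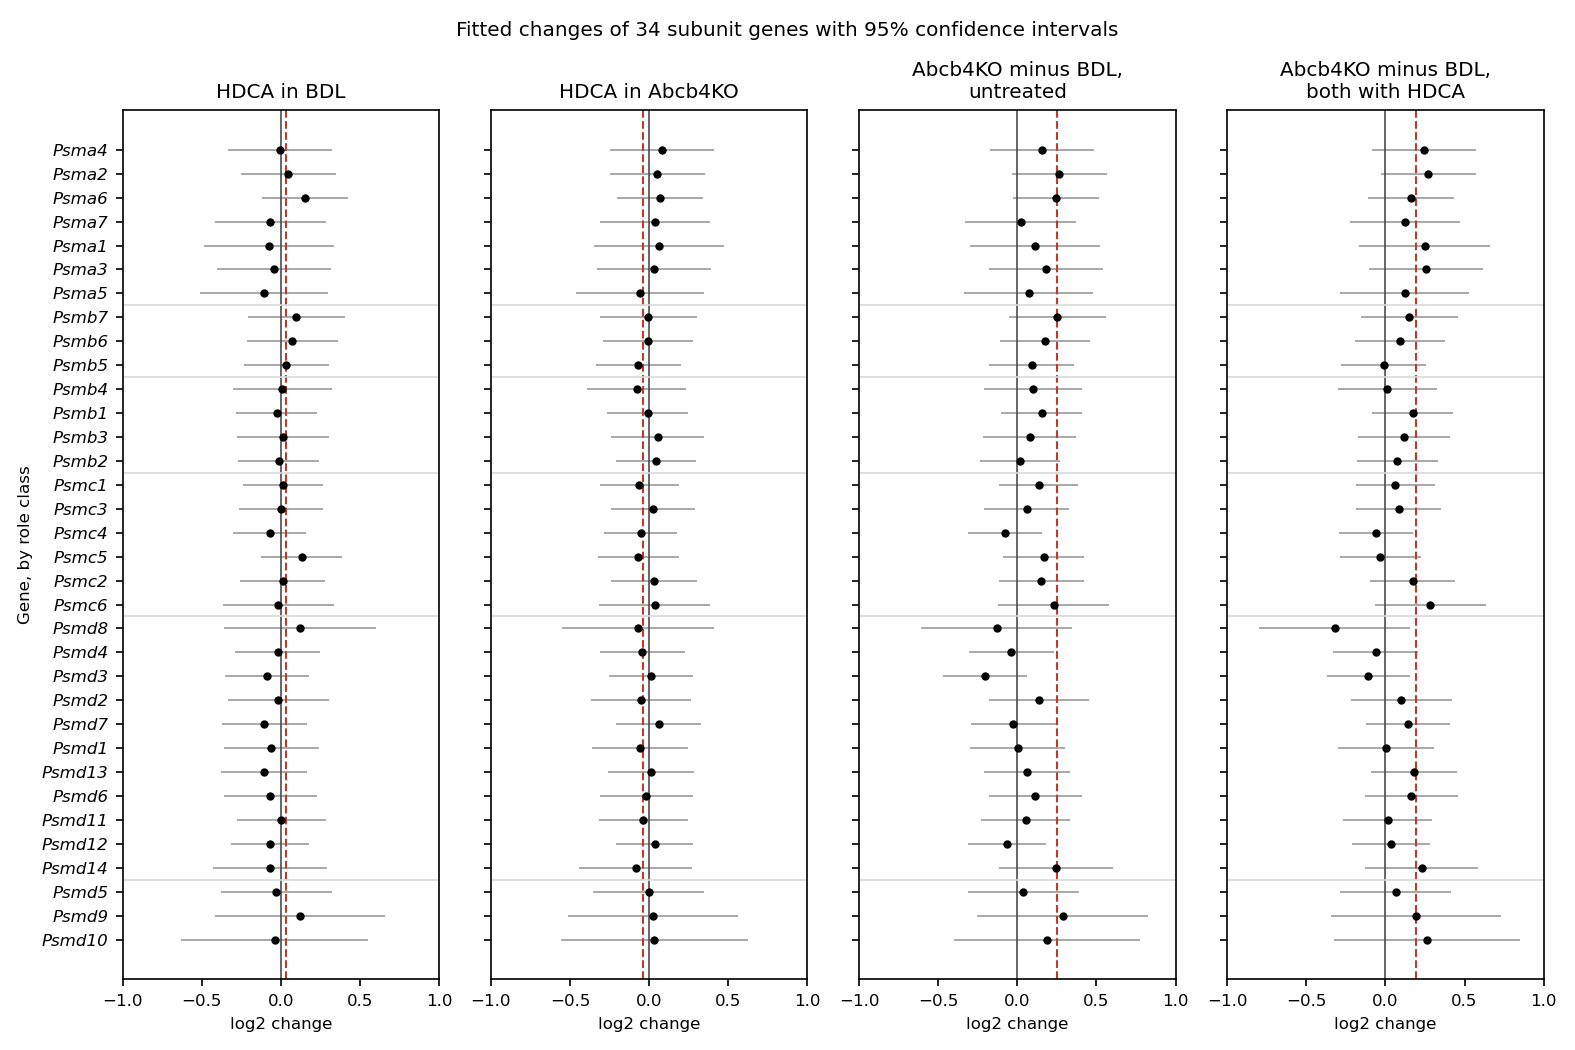
Fitted change of each of the 34 subunit genes on the log2(FPKM + 1) scale (points) with its 95% confidence interval from limma (lines) in 4 comparisons; the solid line is 0 and the dashed red line the median over all 10805 genes tested. All intervals include 0; in the comparisons between models most points lie between 0 and the dashed lines at 0.25 and 0.20.

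The balance of the 19S and the 20S was compared within each library, which removes the library scaling but not effects of gene length. The tested 20S gene models ran from 732 to 1960 bases, and those of the 19S without chaperones from 1279 to 3331. Untreated Abcb4KO against untreated BDL had a median of 0.29 (log2) over genes under 1500 bases and 0.24 over those of 3000 or more. With HDCA in both models these were 0.28 and 0.16. The part of length in the ratios was not tested. The mean FPKM per 19S gene over the mean per 20S gene was 0.611, 0.640 and 0.639 in BDL, 0.618, 0.633 and 0.599 in BDL_HDCA, 0.605, 0.548 and 0.584 in Abcb4KO and 0.525, 0.606 and 0.566 in Abcb4KO_HDCA. The untreated models did not overlap, with the ratio lower in Abcb4KO (0.579 ± 0.029 against 0.630 ± 0.016, SD, n = 3), and the treated models did. Without Psmd8 in the 19S mean, tried after its values were seen, the ratio was 0.566 ± 0.014 in BDL and 0.532 ± 0.026 in Abcb4KO, and the lowest BDL library (0.5539) lay just below the highest Abcb4KO library (0.5545), so the groups then overlapped. A ratio shows unequal levels and not which side moved. The 20S mean per gene was 89.2 ± 3.99 FPKM in BDL and 98.3 ± 3.34 FPKM in Abcb4KO, and the 19S mean 56.3 ± 3.90 and 56.9 ± 2.90 FPKM.

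The immunoproteasome subunits, which replace Psmb5, Psmb6 and Psmb7, varied more than the genes they replace. Psmb8 was at 10.6, 27.8 and 25.2 FPKM in BDL, 24.8, 12.5 and 33.7 in BDL_HDCA, 34.01, 44.96 and 34.99 in Abcb4KO and 45.3, 31.8 and 28.8 in Abcb4KO_HDCA. Its CV was 36.1%, against 8.04% for Psmb5. The 3 Abcb4KO libraries lay above the 3 BDL libraries, which held for 39.2% of all genes tested. The difference of 0.91 ± 0.38 did not pass limma (adjusted p = 0.117). The ratio of Psmb8 to Psmb5 was 0.204 ± 0.082 in BDL, 0.223 ± 0.093 in BDL_HDCA, 0.348 ± 0.058 in Abcb4KO and 0.334 ± 0.033 in Abcb4KO_HDCA. For Psmb9 to Psmb6 it was 0.085 ± 0.037, 0.085 ± 0.037, 0.117 ± 0.019 and 0.124 ± 0.003 in the same order. Psmb10 to Psmb7 did not go that way, at 0.194 ± 0.084, 0.179 ± 0.076, 0.178 ± 0.035 and 0.190 ± 0.014. The untreated differences in Psmb9 (0.66 ± 0.39) and Psmb10 (0.22 ± 0.42) did not pass limma either (adjusted p = 0.241 and 0.726).

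The libraries that stood apart had the lowest ratios of Psmb8 to Psmb5, 0.109 in BDL replicate 1 and 0.125 in BDL_HDCA replicate 2. They also had the lowest for Psmb9 to Psmb6 (0.043 and 0.042, against 0.097 to 0.139 elsewhere) and for Psmb10 to Psmb7 (0.097 and 0.094, against 0.139 to 0.248 elsewhere). The 5 Kupffer cell and macrophage markers, all above 0 in every group, summed to 89.6 and 114 FPKM in these libraries and to 189.7 to 318 FPKM in the other 10. The 5 T and B cell markers, also above 0 in every group, summed to 0.382 to 1.41 FPKM in the ligated groups and to 1.75 to 4.10 FPKM in the Abcb4KO groups. The part of these cells in the ratios was not tested.

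**Figure D5:**
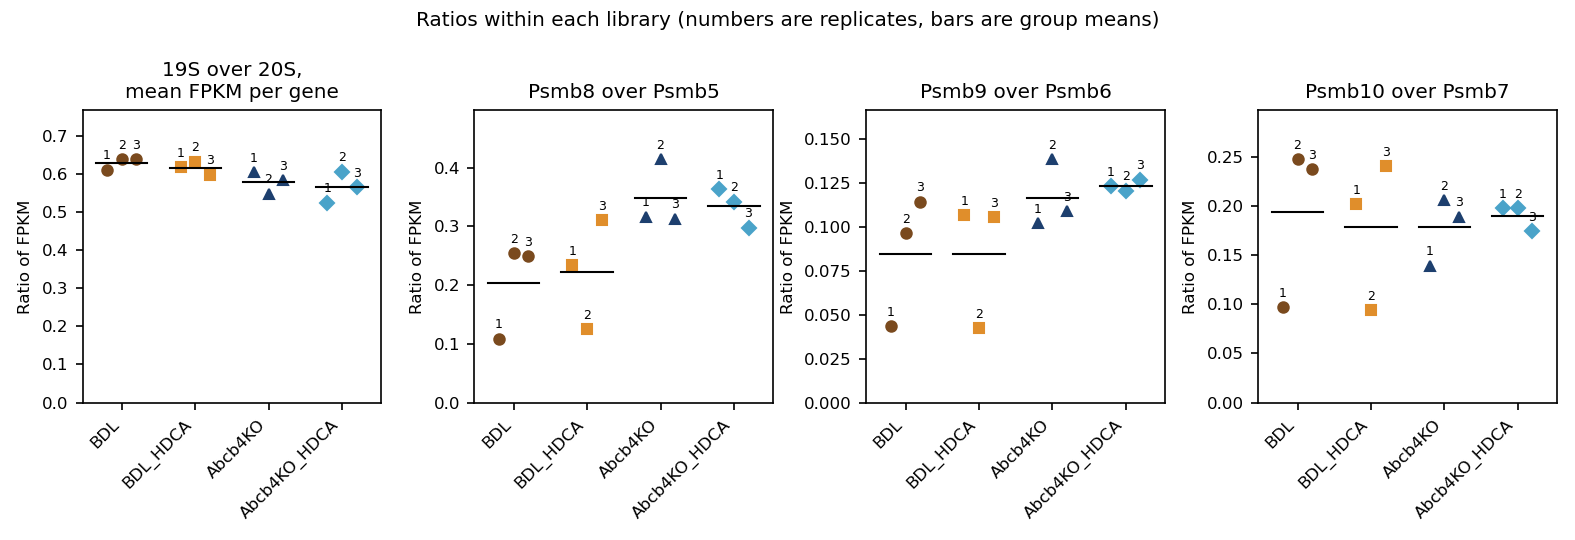
Ratios of FPKM within each library: mean per 19S gene over mean per 20S gene, and each immunoproteasome subunit over the constitutive subunit it replaces; points are libraries with their replicate number and bars are group means. BDL replicate 1 and BDL_HDCA replicate 2 are the lowest points in the 3 immunoproteasome panels (0.109 and 0.125 for Psmb8 over Psmb5).

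No gene of the related lists was called by limma in any of the 5 comparisons. These were the immunoproteasome and PA28 (5 genes tested), other activators, inhibitors and bound factors (9), the 20S assembly chaperones (5), the NFE2L1 pathway (7), p97 and its cofactors, which pull ubiquitinated proteins out of complexes and membranes (6), and ubiquitin with its shuttle receptors (11). Under HDCA the list medians lay between -0.11 and 0.04 in BDL and between -0.06 and 0.03 in Abcb4KO. In untreated Abcb4KO against untreated BDL the medians were 0.37 for the immunoproteasome list, 0.26 for the 20S assembly chaperones, 0.14 for the NFE2L1 pathway, 0.08 for the activators, 0.04 for ubiquitin and 0.02 for p97, beside 0.25 over all genes. Without adjustment 1 of 5 immunoproteasome genes (Psmb8) and 3 of 9 activators and bound factors had a p under 0.05 there, beside 34.3% of all genes. With HDCA in both models it was 3 of 5 20S assembly chaperones (Psmg1, Psmg4 and Pomp), 2 of 7 genes of the NFE2L1 pathway and 2 of 9 activators and bound factors, beside 28.3% of all genes, and the median of the assembly chaperones was 0.37, beside 0.20 over all genes.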

How the data were processed

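PolyA RNA of mouse liver was sequenced in 12 libraries. The authors deposited 1 table of FPKM values; the submitters' processing notes name fastp, HISAT2 2.0.5, featureCounts 1.5.0-p3, DESeq2 1.20.0 and GRCm38, with the annotation release and strand setting not given in the sources used here. Reads were recovered from the FPKM steps (whole for 99.99% of genes within 0.02 of a read). They gave the depth, the gene model lengths, the check for duplicate libraries and the setting of the simulated reads. The limma fits of the deposited values did not use them. Intervals from so few libraries cover their spread only. log2(FPKM + 1), computed here from the deposited FPKM, was fitted with limma 3.58.1 (R 4.3.3, trend, 4 group means, 8 residual degrees of freedom, two-sided, Benjamini-Hochberg over 10805 genes); a fold change on that scale understates low genes. The limma script was tested on simulated reads drawn without shifts shared by a whole library, so that test does not bear on such shifts. Coordinates are from GENCODE on GRCm38; near-identical genes were found with blastn 2.17.0. Groups came from the titles.

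The subunit genes, the related lists and the tests were chosen with earlier results of these data known. Named genes were the catalytic subunits, the highest and lowest tested gene of each role class, the 3 with the smallest p in each comparison where none was called, untested members, called genes of related lists, the NFE2L factors, the immunoproteasome subunits and Abcb4; others are said to be chosen after seeing values. Same-numbered libraries deviated together from their group means between Abcb4KO and Abcb4KO_HDCA (correlations of 0.312 to 0.548). They did not do so in BDL (-0.43 to 0.431) or between models. No label gives pairs, and BDL replicate 1 with BDL_HDCA replicate 2, which differ in number, also reached 0.548. The correlations therefore cannot show a pairing, and the number served as a block in an alternative fit only. The lowest chi-square per gene between libraries was 32.4, so none was a duplicate. Some promoter stretches are not reported here.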

Additional observations from a re-analysis of the deposited data

How the results depend on the processing

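Both HDCA effects and their difference had 0 subunit genes called under every alternative run (pseudocount of 0.1, no filter, a mean FPKM of at least 5, median-of-ratios scaling, replicate block, array weights, leaving out libraries and, except for the difference, fitting only the groups compared). In untreated Abcb4KO against untreated BDL the count was 0, but 2 with median-of-ratios scaling, 3 with array weights and 2 without the pair of libraries that stood apart; with HDCA in both models it was 1 with array weights. The median change turned with median-of-ratios scaling to -0.26 in the untreated and to -0.15 in the treated comparison; that scaling moved the median of all genes from 0.25 to -0.05 and from 0.20 to -0.03. Leaving out 1 library at a time, the median HDCA change in Abcb4KO ran from -0.12 (without Abcb4KO_HDCA replicate 1) to 0.060, and no subunit gene was called in any comparison.

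Among the single genes named, none of them called, the sign turned in 9 cases. With median-of-ratios scaling the untreated differences were -0.12 for Psma6, -0.10 for Psma2 and -0.12 for Psmb7, and the treated differences -0.0040 for Psma2 and -0.029 for Psma4. With array weights the difference of HDCA effects for Psmd13 was -0.0056. Leaving out 1 library at a time, the HDCA change in Abcb4KO ran from -0.18 to 0.030 for Psmc5 (highest without Abcb4KO_HDCA replicate 3), from -0.20 to 0.011 for Psmb5 and from -0.24 to 0.019 for Psmb4 (both highest without replicate 2). The cause of these turns was not tested. The replicate block left the count at 0 in all 5 comparisons and changed no call; between the models the numbers share only a number (-0.244 to -0.149 untreated, -0.228 to -0.034 treated). A low level kept Psma8 (0.0286 to 0.782 FPKM, 2 to 53 reads a library) out of the test, and the members tested had at least 284 reads. With 3 libraries a group, differences under 1.5-fold in the wider intervals could not be seen. The planned count models (edgeR and DESeq2) were run on reads recovered from the FPKM and then left out with their values, since count tests are not made here on FPKM. Between the untreated models edgeR called only Psmd3 lower. DESeq2 called more subunit genes lower there than the settings above, the 20S gene Psmb2 among them. With HDCA in both models only DESeq2 called subunit genes, also lower.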

Other observations

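Pomp and Rps27a, which are not subunit genes and were chosen after their values were seen, were also highest in Abcb4KO_HDCA replicate 1. Pomp, the chaperone that helps to mature the 20S barrel, was at 154 FPKM there, against 68.6 to 119 FPKM in the other 11 libraries. Rps27a, which encodes ubiquitin fused to a ribosomal protein, was at 277 FPKM there and at 109 to 208 FPKM elsewhere.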
